A study of Mus musculus with 6 samples.

Results

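The comparison described here is that of BMP4 with FGF8 for 5 h against BMP4 alone for 5 h, in cultured mouse mesoderm progenitor cells. It rests on 2 of the 6 libraries of the series, chosen by their labels, with 1 library on each side. The cells were primary mesoderm progenitors isolated from mouse embryos of the C57BL/6 strain, in a series about the tailbud, the growth zone at the rear end of the embryo. Per the labels' protocols they were kept in serum-containing medium on a feeder layer of wild-type mouse embryonic fibroblasts whose division had been stopped with mitomycin C, and the recombinant proteins (labelled rhBMP4 and rhFGF8) were added after 96 h, so that both libraries are labelled 101 h in culture. Both groups therefore shared strain, feeder layer, serum, BMP4 and time in culture, and differed by label in FGF8 only. Neither the age of the embryos, nor the doses, nor the number of embryos behind a library could be read from the labels. Nothing in the labels says that libraries come from separate cultures or embryos. The feeder cells carried no tag by which their RNA could be separated, so each library can hold RNA of feeder cells as well as of progenitors.

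FGF8 is a secreted fibroblast growth factor made in the tailbud and the youngest presomitic mesoderm, where FGF signalling helps to keep cells posterior and unsegmented. FGFs bind receptor tyrosine kinases (Fgfr1 to Fgfr4) at the cell surface, with heparan sulphate proteoglycans as cofactors, and signal through RAS, RAF, MEK and ERK. Active ERK induces its own inhibitors, such as the Sprouty (Spry), Spred and dual-specificity phosphatase (Dusp) genes, as well as the ETS factors Etv4 and Etv5, and the RNA levels of these genes are widely read as a measure of FGF signalling. BMP4 acts through other receptors and SMAD proteins, with the Id and Msx genes among its best known targets. An added protein leaves no RNA of its own, so no gene level can show directly which culture received FGF8.

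The libraries held 218825816 (BMP4) and 222676298 (BMP4 with FGF8) counts, and 3 counts correspond to 0.0136 and 0.0133 CPM (library-scaled counts, computed on TMM effective library sizes). In the deposited counts both columns were out of register with the gene names and had to be matched to them, after which 17894 of 19342 names had a secure value in both. Of these, 13513 reached 1 CPM in at least 1 of the 2 libraries and were analysed, and they held 99.8% of the counts of each. A gene was called different where its log2 ratio, taken after adding 0.5 CPM to both levels, passed a stated fold and the exact 95% counting interval of its plain ratio excluded 1. With 1 library a side there is no replicate, no p-value can be given, and the intervals (Clopper-Pearson) cover counting error only.

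Before the comparison itself, the state of the 2 libraries has to be described, because it went against the culture time on their labels. T (Brachyury), which drives mesoderm formation and axis elongation, stood at 77.8 CPM with BMP4 and 73.3 CPM with BMP4 and FGF8, beside 83.2 CPM at 0 h and 7.64 CPM after 96 h without growth factor. Tbx6, which commits cells to presomitic mesoderm, stood at 37.2 and 36.2 CPM in the libraries labelled 5 h, 40.7 CPM at 0 h and 0.584 CPM at 96 h. Both libraries were thus near the uncultured cells and far from the 96 h culture to which the factors are said to have been added. At a threshold of 1.5-fold in either direction, 0.926% of 13501 genes differed between BMP4 with FGF8 and 0 h, and 12.6% of 13839 between BMP4 with FGF8 and 96 h. For BMP4 alone the shares were 1.13% and 12.5%. Whether this reflects the handling of the cells, the labels or the factors was not tested.

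The libraries with and without FGF8 were very similar. Of 13513 genes, 26 (0.192%) were at least 2-fold higher with FGF8 and 9 (0.0666%) at least 2-fold lower. At 1.5-fold, 46 genes (0.34%) were higher and 31 (0.229%) lower. The median log2 ratio was 0.01, and 96.4% of genes lay within 1.2-fold. For the 10347 genes with a mean of at least 5 CPM, the central 95% of log2 ratios ran from -0.19 to 0.18, or ratios from 0.876 to 1.13.

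**Figure D1:**
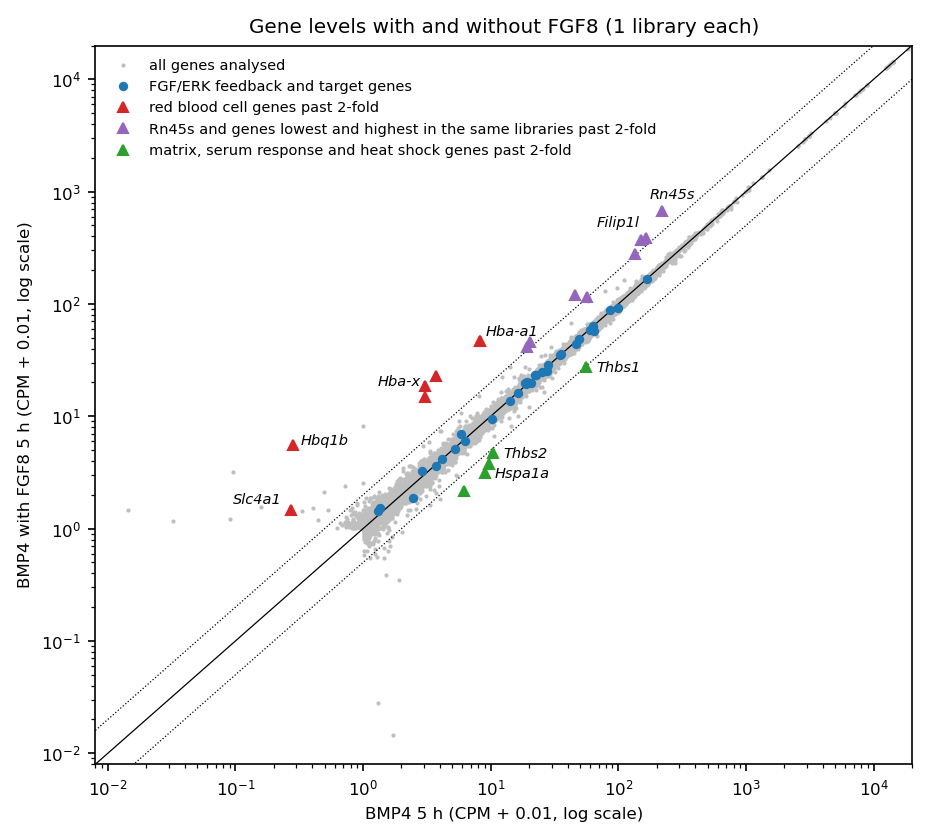
Level of each of 13513 genes in the library with BMP4 (horizontal axis) and with BMP4 and FGF8 (vertical axis), in CPM plus 0.01 on log scales; the solid line marks equal levels and the dotted lines 2-fold differences. The FGF/ERK genes (blue) lie on the line of equality, while red blood cell genes (red) and Rn45s with genes lowest and highest in the same libraries (purple) lie above it and 5 matrix, serum response and heat shock genes (green) below it.

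The feedback genes of the FGF pathway were at nearly the same level in both libraries. Of 35 listed FGF/ERK feedback and target genes, 34 were placed and 31 passed the level filter. None of the 31 was past 1.5-fold in either direction, which is near the background of 0.57% of all genes, 30 lay within 1.2-fold (96.4% of all genes did), and their median log2 ratio was -0.012, beside 0.01 over all genes analysed. Over the 34 placed members, 14 were higher with FGF8 and 20 lower (53.4% and 46.5% of all placed genes were).

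The Sprouty genes encode inhibitors that act between the receptor and RAF. Spry1 had 18.6 CPM with BMP4 and 19.8 CPM with BMP4 and FGF8, a ratio of 1.07 (interval 1.02 to 1.11). Spry2 had 22.4 and 23.1 CPM, and Spry4 had 25.3 and 24.7 CPM. All 3 Sprouty genes lay within 1.1-fold. At 0 h the same genes stood at 19.9, 22.6 and 27.7 CPM, and at 96 h at 10.5, 10.2 and 4.68 CPM, so that they were low in the 96 h culture and not in either library labelled 5 h. The related inhibitors Spred1 (63.9 and 63.8 CPM) and Spred2 (35.7 and 35.5 CPM) had ratios of 0.999 and 0.993.

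Dusp6 encodes the phosphatase that inactivates ERK in the cytoplasm and is one of the most direct readouts of FGF in the embryo. It had 85.9 CPM with BMP4 and 88.3 CPM with BMP4 and FGF8, a ratio of 1.03 (interval 1.01 to 1.05), beside 87.1 CPM at 0 h and 50 CPM at 96 h. Dusp4, a nuclear phosphatase, had 46.6 and 44.0 CPM. Etv4 had 34.9 and 35.1 CPM and Etv5 had 60.3 and 58.7 CPM, with intervals of their ratios of 0.973 to 1.04 and 0.95 to 0.997. Il17rd (Sef), a membrane inhibitor of FGF receptors, was slightly lower with FGF8, at 99.1 and 92.5 CPM (ratio 0.934, interval 0.916 to 0.952). For Dusp6, Etv4 and Spry4 the upper end of the counting interval was at most 1.05, so counting error was not what limited the comparison.

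The largest log2 ratios of the list were 0.24 for Fgfbp3, a secreted FGF carrier (5.82 and 6.98 CPM), and -0.31 for Bhlhe40, a repressor of the bHLH family (2.45 and 1.87 CPM). The ERK-responsive growth genes Myc (28.3 and 28.5 CPM) and Ccnd1, encoding cyclin D1 (168 and 166 CPM), had ratios of 1.01 and 0.985. Of 24 components of the MAPK cascade none was past 1.5-fold (0.57% of all genes were), and the list's median log2 ratio was 0.007.

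Ligands and receptors gave the same picture with 1 gene near the threshold. Of 24 listed genes all were placed and 19 analysed, with none past 1.5-fold by the rule. As 0.57% of all genes were, this is near the background. The cells' own Fgf8 transcript, which the recombinant protein does not contribute to, had 13.7 CPM with BMP4 and 15.3 CPM with BMP4 and FGF8 (ratio 1.12, interval 1.06 to 1.17), beside 17.9 CPM at 0 h and 1.32 CPM at 96 h. Fgf17, a ligand gene of the same subfamily, had 33.2 and 32.3 CPM. Fgf4 had 1.12 and 0.911 CPM and Fgf3 had 6.37 and 5.92 CPM. The main receptor gene of the mesoderm, Fgfr1, had 106 and 105 CPM (ratio 0.985), and Fgfr2 had 51.7 and 53.4 CPM. Fgfr4 was the exception: 508 counts with BMP4 and 812 with BMP4 and FGF8, or 2.30 and 3.61 CPM, gave a plain ratio of 1.57 (interval 1.4 to 1.76) and a log2 ratio of 0.55 after adding 0.5 CPM (0.63 after adding 0.1 CPM, which is past 1.5-fold). In the other libraries Fgfr4 ranged from 2.12 to 2.77 CPM, so the library with FGF8 was the highest of the 6. The heparan sulphate proteoglycan genes Sdc1 and Gpc3 were slightly higher, with ratios of 1.11 and 1.1.

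**Figure D2:**
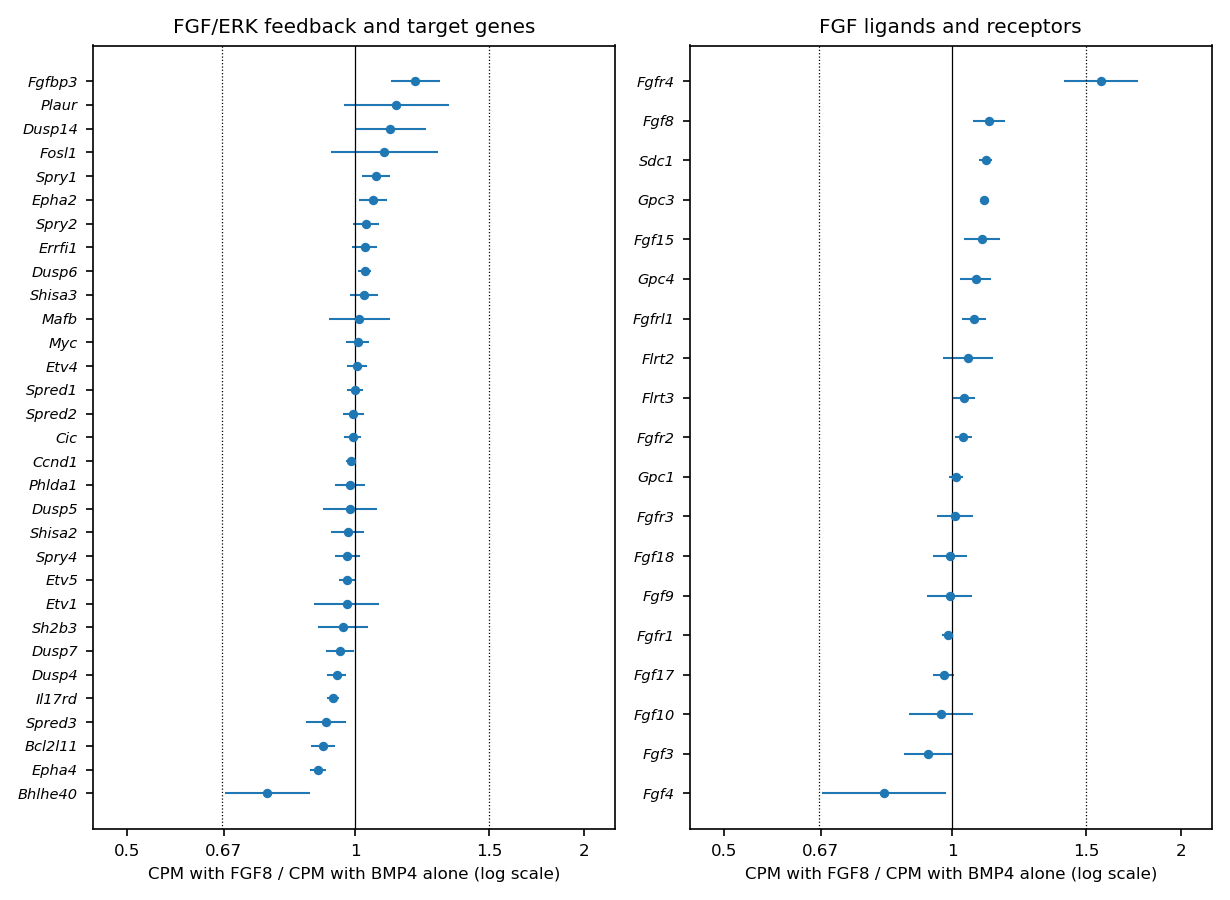
Ratio of the CPM with BMP4 and FGF8 to the CPM with BMP4 alone (log scale) for the 31 FGF/ERK feedback and target genes (left) and the 19 FGF ligand, receptor and cofactor genes (right) that passed the level filter; bars are exact 95% counting intervals and dotted lines mark 1.5-fold. All genes but Fgfr4 sit between the dotted lines, and the interval of Fgfr4 crosses the upper one.

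Immediate early genes, which switch on within minutes of a growth factor or serum stimulus, were not higher as a group. Of 31 listed, 28 were placed and 26 analysed, of which 12 were higher and 14 lower, with a median log2 ratio of -0.079. Over the 28 placed, 12 were higher and 16 lower (53.4% and 46.5% of all placed genes were). None was at least 1.5-fold higher and 2 were at least 1.5-fold lower (0.34% and 0.229% of all genes were), and 21 of the 26 lay within 1.2-fold, beside 96.4% of all genes. Fos had 34.4 CPM with BMP4 and 38.7 CPM with BMP4 and FGF8 (ratio 1.12, interval 1.09 to 1.16). Egr1, the zinc finger factor induced by ERK, had 39.7 and 42.3 CPM (ratio 1.07), and Jun had 33.0 and 34.7 CPM. These 3 genes were higher in both libraries than at 0 h, where they stood at 11.3, 15.7 and 20.3 CPM, and Fosb was at 19.8 and 18.6 CPM beside 3.04 CPM at 0 h. The raised level of these factors was therefore shared by the culture without FGF8. The lower members included Arc (2.80 and 1.82 CPM), Fosl2 (4.12 and 3.17 CPM) and the serum-inducible Ctgf (14.0 and 9.56 CPM), with log2 ratios of -0.51, -0.33 and -0.52. The 2 members past 1.5-fold by the rule were the heat shock genes Hspa1a and Hspa1b. Arc was 1.54 times lower by its plain ratio (interval 1.36 to 1.75) and passed the rule with 0.1 CPM added, at a log2 ratio of -0.60.

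The genes of the progenitor state were near equal levels. Of 20 tailbud and axial progenitor genes all were analysed and all lay within 1.2-fold. None was past 1.5-fold, which, at 0.57% of all genes, is near the background, and log2 ratios ran from -0.08 (T) to 0.15 (Fgf8). Of 20 presomitic genes all were analysed and none was past 1.5-fold, again near the background. Msgn1, a bHLH factor of the presomitic mesoderm, had 18.2 and 17.1 CPM, and Cdx2, a homeobox factor of the posterior axis, had 51.5 and 53.6 CPM. The segment border gene Mesp2 had the highest log2 ratio of the presomitic list, 0.31, at 2.86 and 3.66 CPM. All 11 placed posterior Hox genes (groups 10 to 13) were higher with FGF8, by little: the median log2 ratio of the 9 analysed was 0.052, and the largest was 0.27 for Hoxd13, at 19.5 and 23.5 CPM. Over all placed genes, 53.4% were higher with FGF8.

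BMP4 was present on both sides, and its targets were near equal levels in both. None of 25 BMP/SMAD target genes was past 1.5-fold (0.57% of all genes were, so this is near the background), 24 lay within 1.2-fold, and their median log2 ratio was 0.034. They summed to 356 CPM with BMP4 and 371 CPM with BMP4 and FGF8, beside 363 CPM at 0 h and 388 CPM at 96 h. Whether either culture responded to BMP4 was not tested. Id1, an inhibitor of bHLH factors, had 30.8 and 34.9 CPM, and the homeobox gene Msx1 had 25.3 and 28.7 CPM, each with a ratio of 1.13. The cells' own Bmp4 transcript had 18.1 and 21.1 CPM. WNT targets (16 genes), Notch pathway genes (18), cell cycle genes (27), cholesterol synthesis genes (20), ribosome biogenesis genes (18), glycolysis and hypoxia genes (21) and p53 targets (16) had no gene past 1.5-fold and medians between -0.035 and 0.053. The kidney-forming intermediate mesoderm had a median of 0.148 over 19 genes, again with none past 1.5-fold. Pax2 had 42.2 and 46.9 CPM, Osr1 had 11.8 and 11.2 CPM, and Lhx1 had 1.86 and 2.63 CPM (log2 ratio 0.40). Foxf1, a lateral plate factor, had 5.31 and 5.44 CPM.

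**Figure D3:**
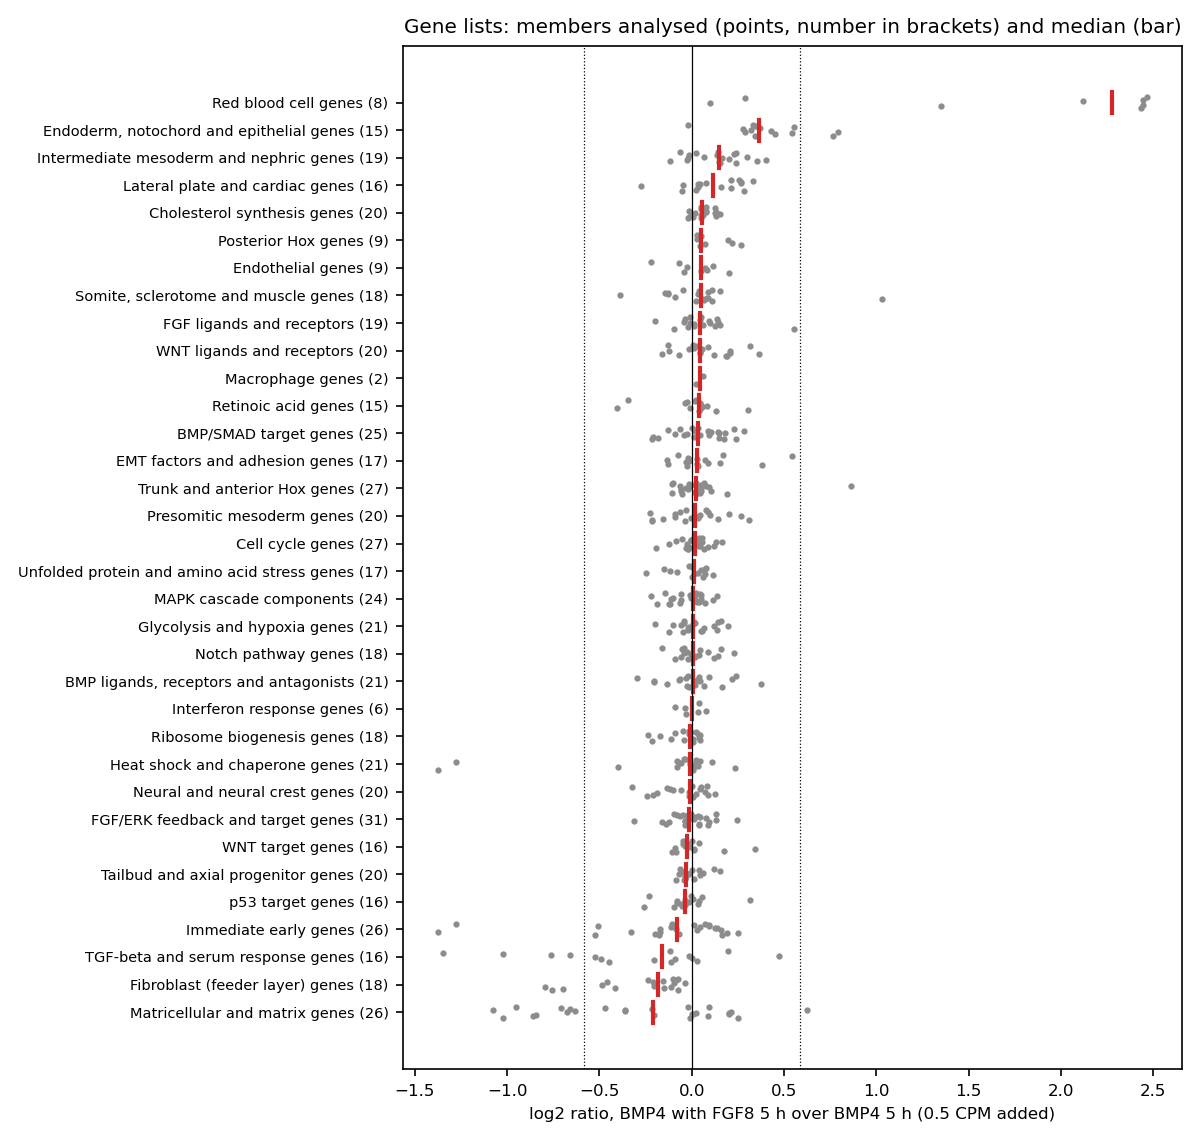
Log2 ratio of BMP4 with FGF8 over BMP4 alone for the members analysed of each of 34 gene lists (points), with the list's median (red bar) and dotted lines at 1.5-fold. Most lists sit on 0; the red blood cell and the endoderm, notochord and epithelial lists lie to the right, and the fibroblast, serum response and matrix lists extend to the left.

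What did differ fell into a few groups of genes. Of the 26 genes at least 2-fold higher with FGF8, 7 were red blood cell genes, 8 were Rn45s and genes lowest and highest in the same libraries as Rn45s, and 11 were others. Of the 9 genes at least 2-fold lower, 5 were matrix, serum response or heat shock genes. The 7 red blood cell genes include both Hba-a1 and Hba-a2, which carried the same counts. These groups were formed after the values had been seen.

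Globin genes were the most distinct. Hba-x, the embryonic zeta-like chain on chromosome 11, had 677 counts with BMP4 and 4210 with BMP4 and FGF8, or 3.06 and 18.7 CPM, a ratio of 6.11 (interval 5.63 to 6.64). Hbb-y, an embryonic beta-like chain on chromosome 7, had 3.70 and 22.7 CPM (ratio 6.13, interval 5.69 to 6.61), and Hbb-bh1, another embryonic beta-like chain, had 3.06 and 14.9 CPM. The near-identical adult alpha genes Hba-a1 and Hba-a2 carried the same counts, 1822 and 10613, in each library, so their reads cannot be told apart and count once; they corresponded to 8.23 and 47.1 CPM (ratio 5.72, interval 5.45 to 6.02). Hbq1b, a theta-like chain, had 0.271 and 5.52 CPM. Hba-x, Hba-a1, Hbb-y and Hbb-bh1 were thus between 4.89 and 6.13 times higher in the library with FGF8. Hbq1b was 20.3 times higher (interval 15.7 to 26.8), but this value is less secure. It rests on 60 counts with BMP4, beside 1242 with BMP4 and FGF8. The BMP4 value was matched to the name Hbq1b by a margin of 9.23 units, short of the stricter placement margin used as a check. The adult beta genes differed less, at lower levels: Hbb-bs and Hbb-b1, which carried the same counts, had 0.285 and 0.551 CPM (ratio 1.93, interval 1.42 to 2.66), and Hbb-bt had 0.230 and 0.533 CPM (ratio 2.31, interval 1.65 to 3.28). In both libraries the chains were far below the 96 h culture, where Hba-x stood at 308 CPM and Hba-a1 at 2100 CPM.

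The other genes of red cells were at low levels and differed by unlike factors. Slc4a1, the anion exchanger of the red cell membrane, had 0.262 and 1.44 CPM. Hemgn was at 0 counts with BMP4 and 57 with BMP4 and FGF8, or 0.253 CPM, where 0 counts allow up to 0.0136 CPM. The erythroid factors Gata1 (12 and 33 counts) and Klf1 (26 and 62 counts) had ratios of 2.7 (interval 1.36 to 5.75) and 2.34 (interval 1.46 to 3.86). Alas2, which starts haem synthesis in red cells, had 2.15 and 2.73 CPM (ratio 1.27), and Epor, the erythropoietin receptor gene, had 0.651 and 0.875 CPM (ratio 1.34). Ank1, encoding the ankyrin of the red cell membrane, had 187 and 202 counts (ratio 1.06, interval 0.866 to 1.3). These 3 genes stood at 40.7, 6.0 and 19.7 CPM at 96 h, and at 2.3, 0.785 and 0.739 CPM at 0 h. Their ratios were below those of the globins, and the source of the unlike ratios was not tested. Alas2 lies within the span of Apex2, and Gata1 within that of Gm39488, so reads may be shared within these pairs. Of 21 listed genes, 19 were placed and all 19 were higher with FGF8 (53.4% of all placed genes were). The median log2 ratio was 0.421 over the 19, beside 0.008 over all placed genes. Only 8 passed the level filter, Slc4a1 through the library with FGF8 alone. These numbers take Hba-a1 and Hba-a2, and Hbb-bs and Hbb-b1, as separate genes although each pair carried the same counts. The 7 defining markers summed to 20.5 CPM with BMP4 and 108 CPM with BMP4 and FGF8, beside 15.2 CPM at 0 h and 3080 CPM at 96 h. In bulk RNA, more red cells and more RNA per cell cannot be told apart. Endothelial genes were nearly level: Kdr, the VEGF receptor, had 3.05 and 3.34 CPM, Cdh5 had 1.02 and 1.24 CPM, and the 6 endothelial markers summed to 7.23 and 7.61 CPM.

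The sequences before the start of 3 of these globin genes are shown because their transcripts, from 2 chromosomes, differed together. They are the 250 bases upstream of the annotated start (RefSeq, GRCm38.p6), written 5′ to 3′ in the sense of the gene, with the letters TGATAA, the core bound by GATA factors, or its reverse complement in capitals. Hba-x lies at chr11:32276350-32276599 on the plus strand, Hba-a1 at chr11:32283422-32283671 on the plus strand and Hbb-y at chr7:103853208-103853457 on the minus strand.
Hba-x: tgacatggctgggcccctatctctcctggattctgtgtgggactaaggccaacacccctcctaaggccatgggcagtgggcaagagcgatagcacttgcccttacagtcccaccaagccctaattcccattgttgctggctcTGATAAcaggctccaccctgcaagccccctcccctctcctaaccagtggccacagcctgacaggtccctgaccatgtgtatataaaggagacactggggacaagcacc
Hba-a1: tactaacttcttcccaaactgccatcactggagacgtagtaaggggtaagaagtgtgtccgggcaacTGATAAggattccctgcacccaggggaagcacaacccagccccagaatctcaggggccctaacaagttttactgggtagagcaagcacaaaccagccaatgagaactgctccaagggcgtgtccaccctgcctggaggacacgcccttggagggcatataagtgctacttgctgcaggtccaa
Hbb-y: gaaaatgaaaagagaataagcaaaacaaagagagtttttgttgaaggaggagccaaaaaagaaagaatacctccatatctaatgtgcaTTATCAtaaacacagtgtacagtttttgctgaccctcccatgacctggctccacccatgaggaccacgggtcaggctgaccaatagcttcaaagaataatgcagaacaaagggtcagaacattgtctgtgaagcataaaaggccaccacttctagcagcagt
Each holds the motif 1 time, on the minus strand in Hbb-y. Of 27025 promoters of the same length, 8.16% hold it on either strand. A match is a string of letters and not a bound site.

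Rn45s, the precursor of ribosomal RNA, had the largest log2 ratio of the 2538 genes with a mean of at least 50 CPM. It had 48788 counts with BMP4 and 150255 with BMP4 and FGF8, or 220 and 667 CPM, a ratio of 3.03 (interval 3.0 to 3.06). In the other libraries it stood at 327 (0 h), 412 (96 h), 1030 (BMP4 11 h) and 321 CPM (BMP4 with FGF4 11 h), so that BMP4 5 h was the lowest and BMP4 11 h the highest of the 6. Of the 46 genes at least 1.5-fold higher with FGF8, 16, including Rn45s itself and the globin gene Hbq1b, were lowest and highest in those same libraries. Of 13456 genes with a level in every library 1.37% were, although the choice of genes higher with FGF8 favours a low level with BMP4. Filip1l, a filamin A-interacting protein gene, had 150 and 370 CPM, and Cmss1, a nucleolar protein gene in whose span Filip1l lies, had 164 and 383 CPM. Their reads may be shared where they overlap. Zc3h7a, a zinc finger gene (56.9 and 115 CPM), Arhgap21, a GTPase-activating protein gene (136 and 276 CPM), Gphn, encoding gephyrin (57.9 and 106 CPM), Camk1d, a calmodulin-dependent kinase gene (14.1 and 27.5 CPM), and Lars2, a mitochondrial leucyl-tRNA synthetase gene (79.0 and 131 CPM), were among the 16. The order of the other 4 libraries was not always that of Rn45s: Arhgap21, for one, had 323 CPM at 96 h, above its level with BMP4 and FGF8. The part that ribosomal RNA carried into these total RNA libraries has in the levels of these genes was not tested. Ribosome biogenesis genes had a median log2 ratio of -0.008.

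Genes of gut, notochord and epithelium were higher as a group, by a modest factor. Of 20 listed, 19 were placed and 18 of these were higher with FGF8 (53.4% of all placed genes were), with a median log2 ratio of 0.362 over the 15 analysed and 2 at least 1.5-fold higher (0.34% of all genes were). Shh, the hedgehog ligand of notochord and floor plate (chromosome 5), had 894 counts with BMP4 and 1660 with BMP4 and FGF8, or 4.04 and 7.37 CPM (ratio 1.82, interval 1.68 to 1.98). Foxa1, a forkhead factor of endoderm, had 3.26 and 5.89 CPM (ratio 1.81, interval 1.65 to 1.98), and its relative Foxa2 had 2.72 and 3.63 CPM. The epithelial junction genes Cdh1 (E-cadherin; 15.3 and 22.5 CPM) and Cldn6 (18.6 and 27.5 CPM) had ratios of 1.47 and 1.48. The keratin genes Krt8 (18.1 and 23.1 CPM), Krt18 (18 and 22.6 CPM) and Krt19 (7.76 and 10.8 CPM) and the splicing factor gene Esrp1 (9.11 and 11.6 CPM) were higher by between 1.25 and 1.39 times. The exception was Chrd, the BMP antagonist of node and notochord, at 1.91 and 1.87 CPM.

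At 0 h, Cdh1, Cldn6, Shh and Foxa1 stood between the levels of both libraries. Cdh1 had 19.7 CPM and Cldn6 had 23.1 CPM at 0 h, while Shh had 5.07 CPM and Foxa1 had 3.98 CPM. The 5 endoderm or epithelial markers, none of which was at 0, summed to 50.2 CPM at 0 h, 44.5 CPM with BMP4 and 59.5 CPM with BMP4 and FGF8. Other genes above 1.5-fold included Nepn, encoding nephrocan (5.59 and 9.15 CPM), and the iron exporter gene Slc40a1 (2.05 and 3.49 CPM). Bmp7 (12.3 and 14.7 CPM), the P-cadherin gene Cdh3 (26.7 and 34.8 CPM) and Wnt6 (7.6 and 9.92 CPM) were also higher, by less than 1.5-fold. Among trunk and anterior Hox genes, Hoxb5 was alone past 1.5-fold, with 1804 and 3436 counts or 8.15 and 15.3 CPM. Its span lies within that of the antisense gene Hoxb5os, and with the strand setting of the counting unknown the reads of such pairs cannot be told apart.

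Matrix and serum response genes were lower with FGF8. Thbs1 (thrombospondin 1, chromosome 2), a secreted matricellular protein gene induced by TGF-beta and serum, had 12363 counts with BMP4 and 6139 with BMP4 and FGF8, or 55.9 and 27.3 CPM, 2.05 times lower (interval 1.99 to 2.11). Thbs2 (chromosome 17) had 10.4 and 4.68 CPM, 2.23 times lower (interval 2.07 to 2.4). Both were higher in both libraries than at 0 h, where they had 8.89 and 1.07 CPM. With FGF8 they were nearer to 0 h than with BMP4 alone.

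Of 17 TGF-beta and serum response genes all were placed and 16 analysed, with 4 at least 1.5-fold lower (0.229% of all genes were) and a median log2 ratio of -0.160. Besides Thbs1 these included Tagln, a smooth muscle actin-binding protein gene (26.4 and 16.5 CPM), and the smooth muscle actin gene Actg2 (1.28 and 0.551 CPM). Acta2, the other smooth muscle actin gene, had 30.0 and 21.8 CPM. Not every member was lower: Cyr61, a matricellular gene of the same response, had 50 and 51 CPM, and Tgfb2, encoding a TGF-beta ligand, had 5.50 and 7.81 CPM.

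Fibroblast genes, which the feeder layer would be a source of, were lower without exception. All 19 placed members of the list were lower with FGF8 (46.5% of all placed genes were), 3 of the 18 analysed by at least 1.5-fold (0.229% of all genes were), with a median log2 ratio of -0.181. Lox, the collagen cross-linking enzyme gene, had 14.5 and 8.14 CPM, Postn (periostin) had 20 and 12.2 CPM and Mgp (matrix Gla protein) had 5.36 and 2.97 CPM. The abundant collagen chain genes differed less, with Col1a1 at 31.2 and 29.6 CPM and Col3a1 at 42.3 and 39.1 CPM. The 9 fibroblast markers, none at 0, summed to 188 CPM with BMP4 and 160 CPM with BMP4 and FGF8, 1.17 times lower, beside 98.2 CPM at 0 h and 734 CPM at 96 h. The sum was made up largely of the collagen chain genes Col1a1, Col1a2 and Col3a1, and the markers Postn and Mgp differed by more than the sum did. The part of feeder cells in the lower matrix and serum response genes was not tested.

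A wider set of matrix genes, put together after values had been seen, showed which members differed. Of 28 genes, 26 of them analysed, 9 were at least 1.5-fold lower and 1 at least 1.5-fold higher (0.229% and 0.34% of all genes were). Of the 26, 13 lay within 1.2-fold, and in all 16 were lower and 10 higher. Over the 28 placed, 17 were lower and 11 higher (46.5% and 53.4% of all placed genes were). Col12a1 (16.3 and 10.1 CPM), Col8a1 (3.34 and 1.62 CPM), the latent TGF-beta binding protein gene Ltbp2 (4.0 and 1.83 CPM), tenascin C (Tnc; 10.7 and 6.71 CPM) and the matricellular genes Nov (1.63 and 0.684 CPM) and Wisp1 (3.71 and 2.08 CPM) were among the lower. Basement membrane collagens were level, with Col4a1 at 108 and 110 CPM. Outside the lists, Gas6, a ligand gene of TAM receptors (5.40 and 2.95 CPM), and Ptgs2, the inducible cyclooxygenase gene (1.55 and 0.622 CPM), were also at least 1.5-fold lower. Cyp26b1, which degrades retinoic acid, had 15.8 and 11.8 CPM beside 6.82 CPM at 0 h, a ratio of 0.748 (interval 0.711 to 0.787).

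The inducible heat shock genes were the most strongly lower of the well measured genes. Hspa1a had 1977 counts with BMP4 and 708 with BMP4 and FGF8, or 8.94 and 3.14 CPM, 2.84 times lower (interval 2.61 to 3.1). Hspa1b had 9.77 and 3.74 CPM, 2.61 times lower. Both encode the stress-induced chaperone HSP70 and are near-identical copies on chromosome 17, so their reads may be shared and they do not count as independent genes. At 0 h they had 1.60 and 2.19 CPM, below both libraries.

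The remaining chaperones did not share the difference. A list of 21 heat shock and chaperone genes was added after the values were seen. Of these, Hspa1a and Hspa1b were past 1.5-fold and 18 lay within 1.2-fold, beside 0.57% and 96.4% of all genes. The constitutive HSP70 gene Hspa8 had 1000 and 1010 CPM, Hsp90aa1 had 600 and 594 CPM, and the heat-inducible cochaperone gene Dnajb1 had 32.4 and 35 CPM. The one other lying beyond 1.2-fold was Cryab, the small heat shock protein alpha B-crystallin, at 2.54 and 1.80 CPM. In stress pathways of other kinds, 17 unfolded protein and amino acid stress genes had a median log2 ratio of 0.012 with none past 1.5-fold.

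The sequences before the starts of both HSP70 genes are printed to show how alike the copies are, over 250 bases upstream of the annotated start (RefSeq, GRCm38.p6; minus strand, chr17:34972157-34972406 for Hspa1a and chr17:34959239-34959488 for Hspa1b). Capitals mark GAANNTTC, the inverted repeat core of a heat shock element, which reads the same on both strands.
Hspa1a: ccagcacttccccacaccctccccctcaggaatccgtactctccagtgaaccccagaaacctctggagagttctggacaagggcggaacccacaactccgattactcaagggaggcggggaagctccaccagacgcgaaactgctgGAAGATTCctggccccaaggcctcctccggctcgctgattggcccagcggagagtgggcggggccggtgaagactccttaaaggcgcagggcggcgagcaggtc
Hspa1b: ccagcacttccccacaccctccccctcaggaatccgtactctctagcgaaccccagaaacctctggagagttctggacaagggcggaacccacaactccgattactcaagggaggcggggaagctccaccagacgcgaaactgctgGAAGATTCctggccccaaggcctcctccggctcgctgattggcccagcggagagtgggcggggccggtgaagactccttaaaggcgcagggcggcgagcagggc
The copies were the same at 247 of 250 bases and each holds the motif 1 time, starting 104 bases before the gene. Of 27025 promoters, 6.78% hold it.

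**Figure D4:**
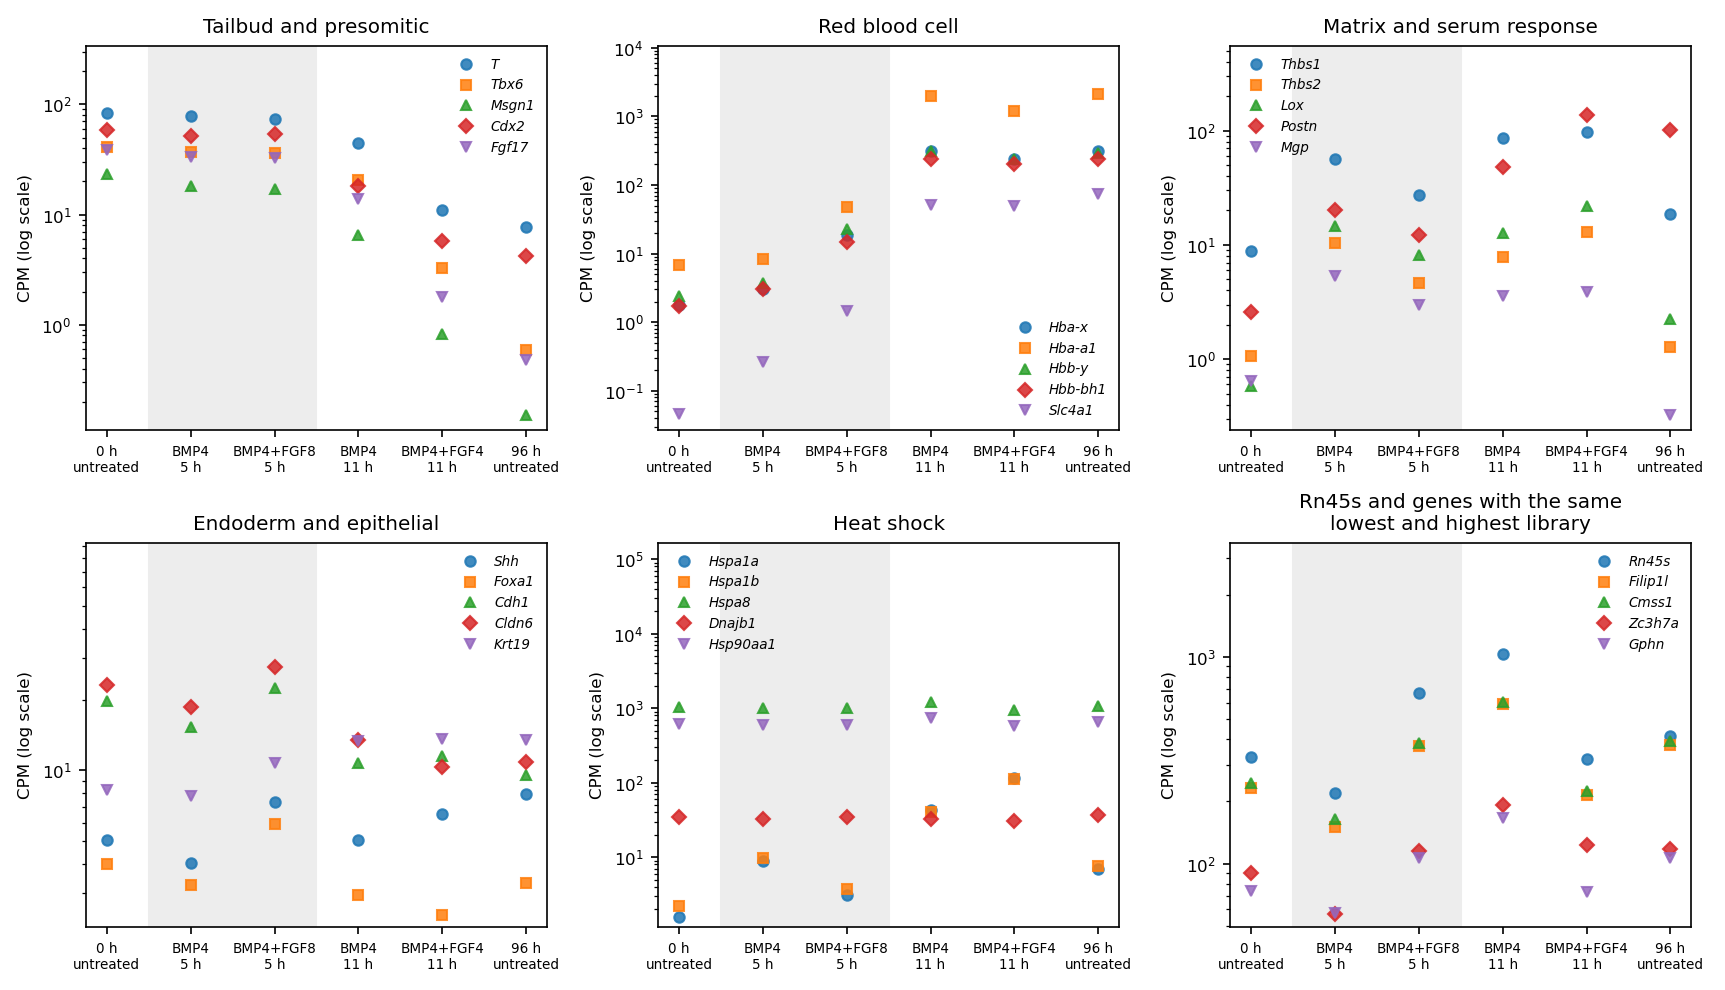
CPM (log scale) of chosen genes in each of the 6 libraries, 1 point per gene and library, with the libraries compared here shaded grey. Tailbud and presomitic genes are level between the shaded libraries, globin genes and Rn45s are higher with FGF8, and Thbs1, Thbs2, Hspa1a and Hspa1b are lower.

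The last group consisted of 15 genes past 2-fold, 11 higher and 4 lower, most of which lay inside another gene or were small RNAs. Among all genes at least 2-fold higher, 40% of those with a RefSeq position lay wholly within the span of another gene, and 44.4% of those lower, beside 5.41% of all genes analysed. B3galt2, a galactosyltransferase gene inside Cdc73, had 0.0814 and 1.21 CPM, while Cdc73 itself had 220 and 222 CPM. Smim18, inside Gtf2e2, had 0.149 and 1.55 CPM, and Scx, a tendon bHLH factor gene inside Bop1, had 0.981 and 2.53 CPM beside 59.4 and 61.2 CPM for Bop1. Scd4, a stearoyl-CoA desaturase gene in a cluster of near-identical copies, had 0.985 and 8.14 CPM, while its neighbour in the family, Scd3, had 14.7 and 12.5 CPM.

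Across the 6 libraries Scd4 and B3galt2 each took 1 of 2 levels, in groupings that followed no label. Scd4 stood between 7.03 and 9.89 CPM in 4 libraries and at 0.985 and 0.936 CPM in the others, BMP4 5 h and BMP4 with FGF4 11 h. B3galt2 stood between 1.17 and 1.41 CPM in 4 libraries and at 0.0698 and 0.0814 CPM at 96 h and with BMP4. The small RNA symbols Mir98, Mir770 and Mir378 had 0.00452, 0.0859 and 1.70 CPM with BMP4 and 1.46, 3.18 and 0.00444 CPM with BMP4 and FGF8. The counts of these genes are reported as uncertain, since reads may have been assigned to the nested gene, to its host or to a copy differently between libraries.

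The series also holds FGF4 added to BMP4 for 11 h, which differs in factor and in time and shares no library with the comparison above, so values are set side by side without a comparison. Over BMP4 at 11 h, the log2 ratio with FGF4 was -1.97 for T and -2.46 for Tbx6, where FGF8 at 5 h gave -0.08 and -0.04. For Spry4, Dusp6 and Etv4 it was -0.75, -0.13 and -1.07, where FGF8 gave -0.03, 0.04 and 0.01. For Thbs1 and Hspa1a it was 0.19 and 1.44, where FGF8 gave -1.02 and -1.37, and for Hba-x it was -0.36, where FGF8 gave 2.43. In that pair 6.25% of 13973 genes were past 1.5-fold in either direction, beside 0.57% here.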

How the data were processed

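Total RNA of 6 libraries, 1 per condition, was measured, and 2 were compared here. Per the labels' protocols, RNA was extracted with a micro kit and a stranded kit for total RNA served for library preparation. The authors deposited raw counts of reads per gene, not normalized, in 1 table. Per the submitters' processing notes, cutadapt, STAR 2.4.0e, HTSeq, DESeq and the build mm10 were used, with no role given. The strand setting of the counting is not given in them. Between 65.4% and 70.9% of the values from 1 to 20 in each library are even, and if the mates of a pair were each counted, the true counting error would exceed the intervals.

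The growth factor columns hold more values than there are names (19415 with BMP4 5 h and 19437 with BMP4 and FGF8, against 19342) and are out of register. Row by row, log2 counts correlated across genes with the 0 h column at r = 0.12 and 0.132. Whole rows were put in case-insensitive name order with 27 date-like names on top. Each column was then aligned in order to the names, matched rows being charged for lying outside the range of both untreated libraries. Every row of the untreated columns sums to at least 11 counts, and a like filter of each growth factor column with the 96 h column was used, since a filter with the 0 h column cost far more (6130.3 against 2726.0 units for BMP4; 2705.4 with no filter). A name was kept where its best rival row was at least 5 units costlier. After placement r was 0.989 and 0.991, which is not an independent check, since the alignment seeks like levels. A direct alignment of both columns gave the same pair for 17413 of 17413 secure pairs. That alignment also seeks like levels, and it cannot show that a pair sits on the right name. Fgf8, Fos, Egr1, Jun and Hspa1a were placed, while Egr2, Egr3 and Egr4 were not. Placement and calls were also run on simulated data, built from the placed BMP4 counts with the same name order and row filter. That run cannot show that this order and filter hold for the deposited counts.

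CPM used TMM effective library sizes (edgeR 4.0.16, normalization only). Positions and sequences are RefSeq's for GRCm38.p6, the assembly of mm10, and 13451 of 13513 symbols had a position. Tests for replicated counts were not used, since each side is 1 library. The 34 gene lists, of which 2 were added after values were seen, the members and the rules were chosen with earlier results of these data known. Named were up to 15 genes per direction ranked by the distance of their interval from 1 (mean level 5 CPM or more, omitting predicted genes, small RNAs, pseudogenes and ribosomal RNA), the placed FGF, ERK and immediate early genes, up to 4 genes of each other list with the largest log2 ratios in size, and 9 genes of state; others named were chosen after their values were seen. Results that need items withheld from this text are not reported here.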

Additional observations from a re-analysis of the deposited data

How the results depend on the processing

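Scaling had no effect on the calls of 2-fold or of 1.5-fold higher genes: with TMM factors from both libraries alone, plain totals or median-of-ratios size factors (DESeq2 1.42.0) 26 genes stayed at least 2-fold higher and 9 lower. The counts turned on weak genes. Adding 2 CPM left 15 genes past 2-fold higher, 2 past 2-fold lower and 13 past 1.5-fold lower, while adding 0.1 CPM gave 17 past 2-fold lower and 50 past 1.5-fold lower. With at least 5 CPM required, 15 and 5 genes were past 2-fold higher and lower, and 27 and 12 past 1.5-fold. Without genes that overlap another RefSeq gene, an alternative added after seeing the data, these counts were 12 and 5, and 16 and 16. Placement on 1 untreated column alone, a margin of 10, placement in all 4 growth factor columns or without the row filter (also added) moved no count by over 1.5 times. With 2 CPM added, the log2 ratios of Thbs1 and Thbs2 were -0.98 and -0.90, short of 2-fold, while Hspa1a and Hspa1b stayed past it. Fgfr4 passed 1.5-fold with 0.1 CPM added, at 0.63. Among 232 named genes no called gene changed direction.

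No paired analysis was possible because each condition has 1 library. No replicate was left out, for the same reason, and how far cultures treated alike differ is not known from these data. Of 13513 genes, 77 were past 1.5-fold in either direction, and none of these differences has a replicate check.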
